A study of Homo sapiens with 14 samples.

Results

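The 41 genes described here encode the Eph receptors and their ephrin ligands, the semaphorins with their neuropilin and plexin receptors, and SLIT2 with its receptor ROBO1. They were taken from a list of gene names and are 41 of the 20992 genes that could be named on the array. A probe belonged to a member when the transcript accession printed for it maps to that gene, which gave 52 probes: 32 members had 1 probe, 7 had 2, and EPHB2 and NRP2 had 3 each.

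RNA of A172 and U87 (U87-MG), established human glioblastoma lines, was measured on 14 one-colour Agilent arrays after an siRNA against the long noncoding RNA LINC00152 (CYTOR) or a control siRNA. The arrays form 4 groups: A172 with a control siRNA of medium GC content that has no RNA target (3 arrays), A172 with an siRNA against exon 1 of LINC00152 (3 arrays), U87 with the control siRNA (4 arrays) and U87 with the LINC00152 siRNA (4 arrays). Cells of every group were electroporated with 20 pmol/ml siRNA and harvested after 40 h, as the labels give it. The text of the paper gives a later time. A control and a knockdown array that carry the same set number are called a pair below, and the question put to them is which guidance genes differ after the knockdown in each line. The labels call the sets independent biological experiments, so each error and p-value measures a spread between cultures of these lines, and 1 siRNA stands for the knockdown. The main fits pool this spread over both lines, so an A172 error also draws on the U87 arrays and the reverse. RNA came from whole cultures, so fewer cells with a transcript and less of it per cell cannot be told apart.

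Ephrins are membrane-bound ligands that signal at cell contacts: A-type ephrins hang on a lipid anchor and B-type ephrins span the membrane, and an Eph receptor and its ephrin can signal into both cells. Semaphorins are secreted or membrane-bound cues that act through plexins, and the secreted class binds neuropilins as co-receptors, while Slit proteins act through Robo receptors. All of these systems steer growing axons, vessels and migrating cells, and in glioma they are studied for their part in invasion, adhesion and the tumour's vessels.

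The supplementary siRNA list of the study holds 2 sequences directed at the first exon of LINC00152, and the labels do not say which of them the arrays received. Both sequences are shown because the knockdown arrays are labelled only by the first exon:
siLINC00152 #1: tgcctgtcttcagatcttcacagca
siLINC00152 #2: agtttcaaattgacattccagacaa

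Values are the scanner's processed signal on the log2 scale relative to the 75th percentile of the non-control spots of the same array, so 0 marks that percentile, and they are compared between arrays for 1 probe, never between probes. The U87 arrays were dimmer than the A172 arrays. That percentile lay between 131 and 284 on the 6 A172 arrays and between 33.0 and 69.0 on the 8 U87 arrays, and the spots well above background, a mark the scanner software sets for each spot, made up 57.3% to 69.0% of the A172 spots and 35.7% to 48.3% of the U87 spots. Set 3 of U87 was the dimmest, with a percentile of 33.0 on its control array and 42.6 on its knockdown array. Each A172 pair shared a slide, and the 8 U87 arrays lay on another slide, so line and slide cannot be told apart in any comparison of levels between the lines. The number of arrays limits the precision of every value.

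Markers were checked before the members. Of 10 markers of glial, neural progenitor or mesenchymal glioma cells, 6 were above background on every A172 array and 4 on every U87 array, NES, VIM and CD44 among them in both lines. SOX2 was above background on every A172 array and on 0 U87 arrays, and the glial markers GFAP, S100B and FABP7 on none of the 14 arrays apart from GFAP on 1 A172 control array. The lists for other cell types were not silent: 3 of 4 endothelial, 3 of 3 leukocyte or microglial and 2 of 4 epithelial markers were above background on every A172 array, against 2, 2 and 1 on every U87 array. TEK and CDH1 were above background on 0 arrays, while PTPRC, CD68 and KRT8 were above background on all 14. A marker counts here when at least 1 of its probes is above background. In U87 PTPRC rests on the probe A_33_P3364808 alone. Its other probes lay below the lowest signal marked above background on each U87 array. What other transcripts such probes may bind was not tested.

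The knockdown target comes first. On the CYTOR probe A_24_P273143 the A172 control arrays read 2.63, 2.44 and 2.48 and the knockdown arrays 0.23, -0.42 and -0.10 in the order of the sets, and the U87 arrays read 1.94, 1.83, 1.71 and 1.82 against -1.21, -0.88, -0.74 and -0.79. Every knockdown array lay below every control array of its line. The signal fell to 16.3% of control in A172 (log2 fold change -2.61 ± 0.16 SE, 3 pairs, limma adjusted p = 0.00163) and to 15.1% in U87 (-2.73 ± 0.14, 4 pairs, adjusted p = 0.000748). Both calls also held in a limma fit that ignores the pairs (adjusted p = 0.000731 and 5.0e-05). The probes of MIR4435-2HG, a near-identical copy of the locus, differed among themselves: A_21_P0012079 changed by -2.44 and -2.97 and A_21_P0012078 by -1.53 and -2.08, whereas A_33_P3269678 read -0.31 and -0.31 and passed the test in neither line.

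In A172 between 28 and 34 members were above background on an array, and in U87 between 18 and 24. A member counts as above background on an array when at least 1 of its probes does on at least 0.5 of its spots. 16 members were above background on every one of the 14 arrays: EPHA2, EPHA8 and EPHB2 among the receptors, EFNA3, EFNA4, EFNA5 and EFNB2 among the ephrins, SEMA3B, SEMA3F, SEMA4B and SEMA4C among the semaphorins, and NRP1, NRP2, PLXNB2, SLIT2 and ROBO1. EPHA3, EPHA5, SEMA3E and SEMA6A were above background on no array, and their signal cannot be told apart from background here. 4 members, EPHB6, EFNB3, SEMA5A and PLXND1, were above background on every A172 array and on no U87 array, and SEMA7A showed the opposite. Of the other members, EPHA4, EPHB3, EPHB4, EFNA1, EFNA2, SEMA3C, PLXNA1 and PLXNB1 were above background on all A172 arrays and on some U87 arrays, and SEMA3A, SEMA3D, EFNB1, EPHA7, EPHB1, PLXNA2 and PLXNA3 on some A172 arrays and no U87 array. EPHA1 was above background on 1 control and 1 knockdown array of U87 and on no A172 array.

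**Figure D1:**
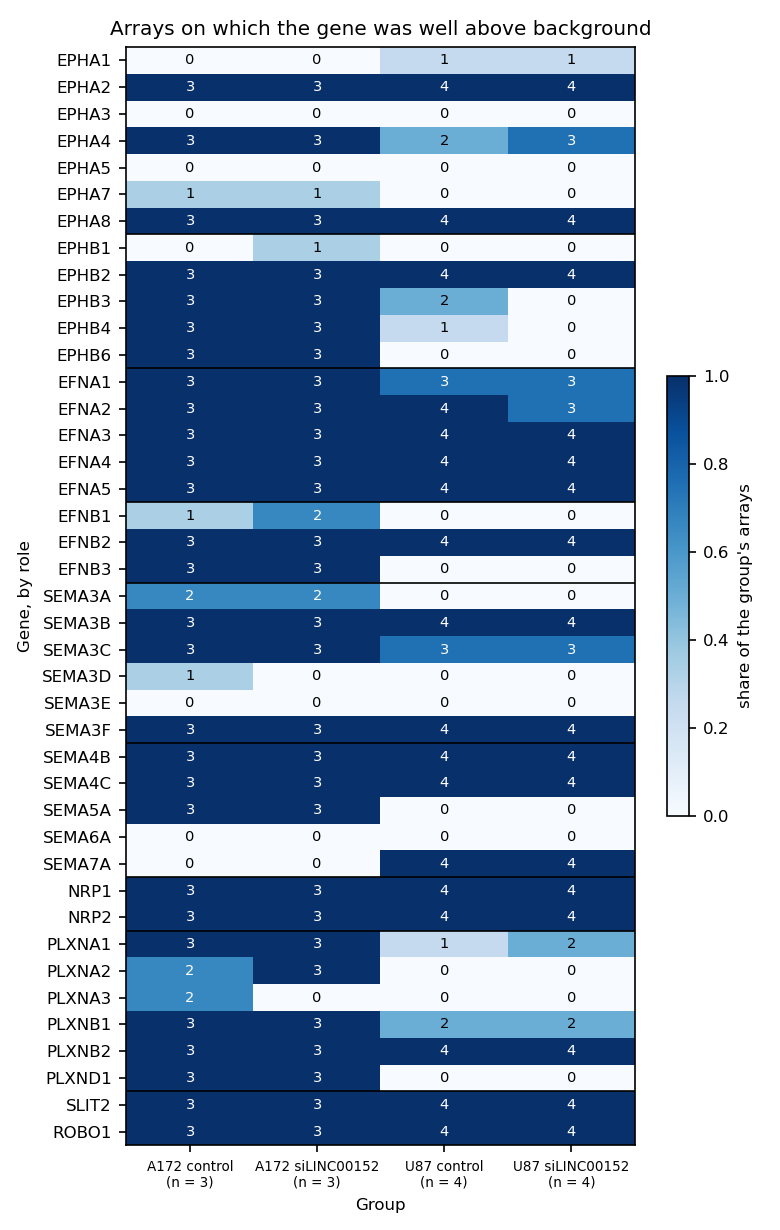
Number of arrays on which each of the 41 members was well above background, for the 4 groups on the horizontal axis and the genes by role on the vertical axis; colour is the share of the group's arrays. In A172 28 members reach every array and in U87 17, while EPHA3, EPHA5, SEMA3E and SEMA6A are at 0 in all 4 groups.

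Knockdown effects were tested with limma on all probes of the array, with the 7 pairs as a block, where the signal of a probe cleared background on 3 or more arrays of either group. By this rule 29 members were tested in A172, 21 in U87, 20 in both lines and 11 in neither, each represented by its brightest probe over all arrays. Called means an FDR under 0.2 together with a log2 fold change past 0.5 in size. In A172, 2 of 29 members were called: PLXNA2 rose and SEMA3B fell. This is beside 584 of 14657 genes, or 3.98%. PLXNA2 could be tested through its knockdown arrays alone, the group where it reads higher, so its call counts here as a description. In U87, 2 of 21 members were called: EFNB2 rose and EFNA2 fell, beside 541 of 12116 genes, or 4.47%. Counts this small beside those shares are no result about the members as a group. The median log2 fold change of the tested members was 0.03 in A172 and 0.06 in U87, against 0.03 and 0.02 over all genes tested. Without the block, limma called 0 members in A172, where 28 genes or 0.191% were called, and 0 in U87, where 6 genes or 0.0495% were called, and 1 tested member in each line had an unadjusted p under 0.05, beside 392 genes or 2.67% in A172 and 289 or 2.39% in U87. With the block these were 6 and 5 members, beside 1928 genes or 13.2% in A172 and 2196 or 18.1% in U87. Every call of a member below therefore depends on comparing the arrays within pairs. The pair differences had 1 sign in all 3 pairs for 12 of the 29 members in A172 (4 up, 8 down), or 41.4% against 39.9% of all genes tested, and in all 4 pairs for 10 of the 21 in U87 (6 up, 4 down), or 47.6% against 33.6%.

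**Figure D2:**
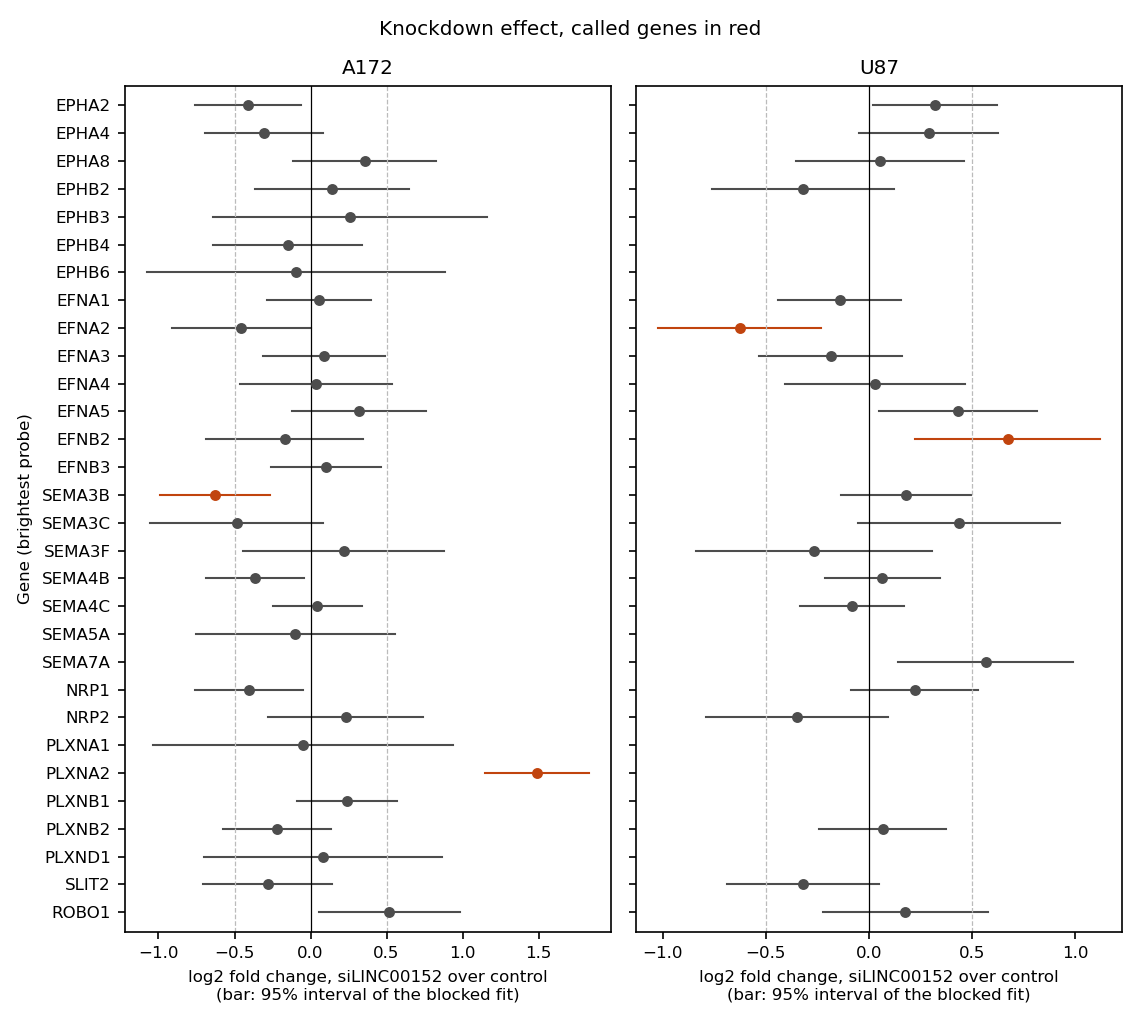
Log2 fold change of siLINC00152 over control for the brightest probe of each member tested in A172 (left) and U87 (right), as points with the 95% interval of the paired limma fit and dashed lines at the fold threshold of 0.5 in either direction. Called members are red: PLXNA2 at 1.49 and SEMA3B at -0.63 in A172, EFNB2 at 0.67 and EFNA2 at -0.62 in U87. PLXNA2 could be tested through its knockdown arrays alone.

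Of the 7 EphA receptors, EPHA2, EPHA4 and EPHA8 were tested in both lines and none of the 3 was called in either. EPHA2 is the EphA receptor best known in glioblastoma, where its level is often high. Its values after the knockdown are given because the lines had opposite signs, a choice made after they were seen. The probe read -0.32, -0.25 and -0.52 on the A172 control arrays against -0.49, -0.88 and -0.95 after the knockdown, and 0.99, 0.57, 0.83 and 0.80 against 1.00, 1.11, 1.31 and 1.05 in U87. The knockdown array lay lower in all 3 A172 pairs and higher in all 4 U87 pairs. The groups overlapped in A172 and not in U87, where control array 1 and knockdown array 1 are nearly equal. The log2 fold changes were -0.41 ± 0.15 and 0.32 ± 0.13 SE and did not pass (limma adjusted p = 0.349 and 0.270), nor did their difference of -0.73 ± 0.20 (adjusted p = 0.384). EPHA4, which binds ephrins of both types, read -0.31 in A172 and 0.29 in U87 (adjusted p = 0.645 and 0.352). In U87 it could be tested through its knockdown arrays alone, since only 2 control arrays were above background. For EPHA8 the brightest probe gave 0.36 and 0.06 (adjusted p = 0.670 and 0.887), and its other probe was above background on no array. The A172 pairs on the brightest EPHA8 probe differed by 0.95, 0.04 and 0.08, so the first carries most of that value. EPHA1, EPHA3, EPHA5 and EPHA7 were above background on too few arrays to be tested.

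EPHB2, a receptor for B-type ephrins that has been linked to glioma cell migration, has 3 probes, all tested in both lines, and only the dimmest of them was called. That probe, A_33_P3880302, read -0.79, -0.42 and -0.21 on A172 control arrays and -1.73, -1.60 and -1.95 on knockdown arrays, and -0.61, -0.43, -1.77 and -1.20 against -1.51, -1.67, -2.11 and -2.02 in U87. All knockdown arrays lay below all control arrays in A172, while in U87 control array 3 lay among the knockdown arrays, although every knockdown array lay below the control of its set. On this probe the signal fell to 41.1% of control in A172 (-1.28 ± 0.21 SE, 3 of 3 pairs, limma adjusted p = 0.0366) and to 56.3% in U87 (-0.83 ± 0.18, 4 of 4 pairs, adjusted p = 0.0970). Neither U87 array of set 3 was above background on this probe, so that pair compares background signal. The brightest probe, A_33_P3370787, read 0.14 in A172 and -0.32 in U87 (adjusted p = 0.990 and 0.419), and A_33_P3331376 read -0.41 and -0.22 (adjusted p = 0.573 and 0.540). On A_33_P3370787 the pairs differed by 0.55, -0.06 and -0.06 in A172 and by -0.06, -0.13, -1.01 and -0.08 in U87. The first A172 pair and U87 set 3 thus carry its values. Which transcripts each probe binds was not tested, so the fall belongs to A_33_P3880302 and not to EPHB2 as a whole. Without the block the adjusted p on A_33_P3880302 was 0.502 in A172 and 1.000 in U87. The A172 call was lost without A172 pair 3 (adjusted p = 0.261) and the U87 call without U87 pair 1, 2 or 4 (adjusted p = 0.255, 0.261 and 0.239). With another background correction (normexp) the A172 fold change was -0.68 and stayed called (adjusted p = 0.00144), while the U87 call was lost at -0.23 (adjusted p = 0.212). The U87 call was also lost without a filter on dim probes (0.238) and at an FDR under 0.05. In A172 over its 10 alternative settings the adjusted p ran from 0.00144 to 0.502, and in U87 over its 9 alternative settings the adjusted p ran from 0.0481 to 1.000.

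Among the other EphB receptors, EPHB3, EPHB4 and EPHB6 were tested in A172 alone and none of them was called there. EPHB4, the receptor of EFNB2 on veins, read 1.01, 1.61 and 1.26 on the A172 control arrays and 0.99, 1.29 and 1.15 on the knockdown arrays, with the 2 groups overlapping (-0.15 ± 0.21 SE, limma adjusted p = 0.987). Its 4 U87 control arrays read -1.61, -2.53, -1.59 and -2.43, only 1 of them above background. EPHB3 read 0.26 and EPHB6, whose kinase domain is inactive, -0.09 in A172 (adjusted p = 0.989 and 0.999). EPHB1 was above background on 1 A172 knockdown array and on no other array.

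All 5 A-type ephrins were tested in both lines, and EFNA2 was the only one of them called, in U87. EFNA2, a repellent cue of the visual map, read -0.73, -0.83, -0.14 and -0.86 on the U87 control arrays and -0.76, -1.85, -1.01 and -1.45 on the knockdown arrays. All 4 of these control arrays and 3 of the knockdown arrays were above background. The knockdown array was lower in each pair, by very little in the first, and the groups overlapped. Its signal fell to 64.8% of control (-0.62 ± 0.17 SE, limma adjusted p = 0.153). In A172, where the arrays read -0.30, 0.84 and 0.43 against -0.51, 0.20 and -0.08, the knockdown array was also lower in all 3 pairs, with overlapping groups, and the fold change of -0.45 ± 0.20 did not pass (adjusted p = 0.469). Across its 10 alternative settings the A172 fold change ran from -0.47 to -0.29 and was not called. The difference between the fold changes, A172 minus U87, was 0.17 ± 0.26 (adjusted p = 0.860). The U87 call was lost without the block (adjusted p = 1.000), with U87 fitted by itself (0.223), on the deposited values (0.210), without a filter on dim probes (0.335) and at an FDR under 0.05. With the normexp background correction the fold change was -0.18 and the call was lost (0.221). It was also lost without any 1 of 5 pairs, with adjusted p from 0.172 to 0.332 over the 7 pairs left out in turn. It held without A172 pair 1 and without U87 pair 1. In all, 6 of the 9 settings lost the call, and over its 9 alternative settings the adjusted p ran from 0.0798 to 1.000.

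EFNA5, another A-type ephrin that repels growing axons, read 0.39, 0.26, -0.30 and 0.86 on the U87 control arrays and 0.73, 0.69, 0.36 and 1.17 after the knockdown, higher in all 4 pairs with overlapping groups (0.43 ± 0.16 SE, limma adjusted p = 0.251). Across its 10 alternative settings this U87 fold change ran from 0.25 to 0.43 and was not called. A172 gave 1.36, 0.05 and 0.18 and 1.12, 0.51 and 0.93, where the first pair went down and the others up (0.32 ± 0.19, adjusted p = 0.697), and the difference between the lines was -0.11 (adjusted p = 0.911). EFNA1, a ligand of EPHA2, read 0.06 in A172 and -0.14 in U87, EFNA3 0.09 and -0.18, and EFNA4 0.03 and 0.03. The adjusted p of these 3 genes lay between 0.538 and 0.999.

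EFNB2, the B-type ephrin that marks arteries and is a ligand of EPHB4, was the member that rose in U87. Its probe read 1.20, 1.38, 0.12 and 2.19 on the U87 control arrays and 1.83, 1.78, 1.44 and 2.54 on the knockdown arrays, and 0.41, 0.23 and -0.05 against -0.22, 0.22 and 0.09 in A172. In U87 the knockdown array was higher in all 4 pairs although the groups overlapped, with the lowest control value and the widest pair in set 3, and in A172 the pairs had both signs. The U87 signal rose 1.59-fold (0.67 ± 0.19 SE, limma adjusted p = 0.167), and A172 read -0.17 ± 0.22 (adjusted p = 0.981). The difference between the lines was -0.84 ± 0.30 and did not pass (adjusted p = 0.511). This call was lost without the block (adjusted p = 1.000), with U87 fitted by itself (0.209), after quantile normalization (0.211), on the deposited values (0.223), without a filter on dim probes (0.352), at an FDR under 0.05 and without any 1 of the 7 pairs other than A172 pair 1. Without U87 set 3 the fold change was 0.46 (adjusted p = 0.276), and over all pairs left out in turn it ran from 0.46 to 0.78 with adjusted p from 0.182 to 0.314. Across processing, over its 10 alternative settings the adjusted p ran from 0.0250 to 1.000. EFNB3, a barrier cue at the spinal midline, was tested in A172 and read 0.10 ± 0.16 (adjusted p = 0.990). EFNB1 was above background on 3 A172 arrays, split between the groups, and was not tested.

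SEMA3B, a secreted semaphorin known as a candidate tumour suppressor, was the semaphorin called on its brightest probe in A172. It read 1.45, 0.33 and 0.40 on the A172 control arrays and 0.60, -0.27 and -0.04 on the knockdown arrays, and -0.48, -0.44, 0.09 and -0.88 against -0.16, -0.62, 0.19 and -0.40 in U87. Each A172 knockdown array lay below the control of its pair, but the groups overlapped, since the first pair read high on both of its arrays, and in U87 3 of 4 pairs went up. In A172 the signal fell to 64.7% of control (-0.63 ± 0.16 SE, limma adjusted p = 0.155), and U87 read 0.18 ± 0.14 (adjusted p = 0.513). The difference between the lines, -0.81 ± 0.21, did not pass (adjusted p = 0.358). The call was lost without the block (adjusted p = 1.000), without a filter on dim probes (0.317), at an FDR under 0.05, without A172 pair 1, 2 or 3 (0.548, 0.514 and 0.422) and without U87 pair 1 (0.233). With the normexp correction the fold change was -0.49, short of the fold threshold at an adjusted p of 0.00740, and over its 10 alternative settings the adjusted p ran from 0.00740 to 1.000.

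SEMA3C, a secreted semaphorin that has been linked to glioma stem cells, read 3.09, 2.67 and 1.77 on the A172 control arrays and 2.71, 1.70 and 1.65 on the knockdown arrays, and -0.74, -0.30, -3.44 and 0.74 against -0.61, 0.01, -2.26 and 0.86 in U87. The knockdown array was lower in all 3 A172 pairs and higher in all 4 U87 pairs, the groups overlapped in both lines, and U87 set 3 lay far below the other U87 sets on both of its arrays, neither of them above background. Neither line passed (-0.49 ± 0.24 SE in A172, limma adjusted p = 0.582; 0.44 ± 0.21 in U87, adjusted p = 0.342), and the difference of -0.92 ± 0.32 did not either (adjusted p = 0.511). These values move with the pairs. With 1 pair left out the A172 fold change ran from -0.67 to -0.25, the weakest without A172 pair 2, and the U87 fold change from 0.18, without U87 pair 3, to 0.54. Across settings U87 ran from 0.11 with the normexp correction to 0.85 on the deposited values, and A172 from -0.54 to -0.46. The signs held throughout. SEMA3F, a ligand of NRP2 that restrains vessel growth, read 0.22 in A172 and -0.26 in U87 (adjusted p = 0.980 and 0.588). SEMA3A, SEMA3D and SEMA3E, the repulsive class members bound by neuropilins or by PLXND1, were above background on at most 4 arrays each and were not tested.

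SEMA4B, a membrane-bound semaphorin, has 2 probes that lie apart in their calls. Its dimmer probe, A_33_P3412016, read -0.44, 0.71 and 0.27 on the A172 control arrays and -0.91, -0.31 and -0.45 on the knockdown arrays, and 1.16, 1.22, 1.56 and 1.11 against 1.15, 1.18, 1.63 and 1.31 in U87. In A172 the knockdown array was lower in every pair, with overlap between the groups through the low control array of set 1, and in U87 the pairs had both signs. On this probe the A172 signal fell to 59.9% of control (-0.74 ± 0.14 SE, limma adjusted p = 0.0619), while U87 read 0.05 ± 0.12 (adjusted p = 0.835) and the difference -0.79 ± 0.18 did not pass (adjusted p = 0.297). The brightest probe, A_23_P95165, had the same sign in A172 with -0.37 ± 0.14 and was not called (adjusted p = 0.376), and read 0.06 in U87. The call on A_33_P3412016 was lost without the block (adjusted p = 1.000), at an FDR under 0.05 and without A172 pair 2 or 3 (0.356 and 0.339). Under normexp it was -0.50 and stayed called (0.00494), and over its 10 alternative settings the adjusted p ran from 0.00494 to 1.000.

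SEMA7A, a lipid-anchored semaphorin that binds integrins and PLXNC1, was above background in U87 alone. Its U87 control arrays read -0.43, -0.56, -0.58 and -0.17 and its knockdown arrays 0.05, -0.12, 0.34 and 0.26. All 4 knockdown arrays lay above all 4 control arrays, and the fold change of 0.57 ± 0.18 SE missed the FDR threshold of 0.2 (limma adjusted p = 0.202). It passed with U87 fitted by itself (adjusted p = 0.163), after quantile normalization (0.190), with outlier spots kept (0.196), with a trended and robust variance (0.192) and without A172 pair 3 (0.185), and without the block the adjusted p was 1.000; over its 10 alternative settings the adjusted p ran from 0.113 to 1.000. With the normexp correction the fold change was 0.25, and without U87 pair 3 it was 0.45 (adjusted p = 0.367), both short of the fold threshold of 0.5. SEMA4C, a ligand of PLXNB2, read 0.04 in A172 and -0.08 in U87 (adjusted p = 0.999 and 0.704), and SEMA5A, a semaphorin with thrombospondin repeats, -0.10 in A172 (adjusted p = 0.999). SEMA6A, a membrane-bound ligand of PLXNA2, was not above background on any array.

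The neuropilins NRP1 and NRP2 bind secreted semaphorins and also vascular endothelial growth factors, and neither was called. NRP1 is given on every array, a choice made after its values were seen, because its signs were opposite in the lines. It read 3.40, 2.74 and 3.88 on the A172 control arrays and 2.83, 2.72 and 3.25 after the knockdown on its brightest probe, and 3.49, 3.16, 4.30 and 3.83 against 3.53, 3.36, 4.72 and 4.06 in U87. In A172 all 3 knockdown arrays lay under the control of their set, in U87 all 4 lay over it, and the groups overlapped in both lines. The fold changes were -0.40 ± 0.15 and 0.22 ± 0.13 SE (limma adjusted p = 0.378 and 0.423), and the difference was -0.62 ± 0.20 (adjusted p = 0.469). The dimmer NRP1 probe had the same signs with -0.59 and 0.71 and was not called either. On that probe the A172 pairs had both signs, at -0.94, 0.29 and -1.13. Its U87 pairs differed by 0.33, 0.26, 1.86 and 0.39, so set 3 carries much of that value. The U87 control array of set 3 was not above background on this probe. NRP2 read 0.23 in A172 and -0.35 in U87 on its brightest probe (adjusted p = 0.920 and 0.388), and its other probes read -0.02 and 0.22 in A172 and 0.02 and -0.17 in U87.

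PLXNA2, a plexin that receives secreted semaphorins through neuropilins and SEMA6A directly, had the largest fitted fold change among the members tested in either line. Its A172 control arrays read -3.23, -2.92 and -2.48, 2 of the 3 above background, and its knockdown arrays -1.81, -1.61 and -0.75, all 3 above background. Every knockdown array lay above every control array, and the 3 pairs differed by 1.42, 1.31 and 1.73. The fitted log2 fold change was 1.49 ± 0.15 SE and was called (95% interval 1.15 to 1.83, limma adjusted p = 0.00699). Without the block the fold change was the same and the adjusted p 0.426, and the call held without any 1 of the 7 pairs, with fold changes from 1.37 to 1.58 and adjusted p from 0.00990 to 0.0826. The probe could be tested through its knockdown arrays alone, the group where it reads higher, so the call is a description. With a filter on every array the probe could not be tested. Since 1 control array was not above background, the size of the rise is a fitted value: with the normexp background correction it was 0.65, and the call held (adjusted p = 0.00312); over its 9 alternative settings the adjusted p ran from 0.00312 to 0.426. In U87 the gene was not above background on any array, with -4.24, -3.65, -3.32 and -3.19 on control and -4.37, -4.22, -3.92 and -3.41 on knockdown arrays, so neither U87 nor the difference between the lines was tested. Of its known partners among the members, NRP1 read -0.40 and NRP2 0.23 in A172, neither called, and SEMA6A was not above background.

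No other plexin was called. PLXNB1, a receptor of SEMA4D, was higher in all 3 A172 pairs at 0.24 ± 0.14 SE (limma adjusted p = 0.706), and PLXNA1 and PLXND1 read -0.05 and 0.08 there (adjusted p = 0.999 and 0.999). The PLXNB1 pairs differed by 0.51, 0.04 and 0.16, so the first carries most of its value. PLXNB2, tested in both lines, read -0.22 and 0.07 on its brightest probe and -0.14 and 0.06 on the other. PLXNA3 was above background on 2 A172 control arrays and on no other array. SLIT2, a repellent for glioma and nerve cells alike, read -0.28 in A172 and -0.32 in U87 (adjusted p = 0.754 and 0.352). Its receptor ROBO1 read -1.67, -0.64 and 0.03 on the A172 control arrays and -1.07, -0.05 and 0.39 on the knockdown arrays, and 0.40, 0.07, -0.12 and 0.74 against -0.05, 0.16, 0.46 and 1.22 in U87. In A172 the knockdown array was higher in each pair by a like amount while the sets lay far apart, so the groups overlapped, and in U87 3 of 4 pairs went up. The fold changes were 0.52 ± 0.20 and 0.18 ± 0.17 (adjusted p = 0.385 and 0.604), with a difference of 0.34 (adjusted p = 0.729). With A172 fitted by itself ROBO1 passed at an adjusted p of 0.141, the 1 call among its 10 alternative settings. Over these settings the adjusted p ran from 0.0288 to 1.000, the lowest at a fold change short of the threshold of 0.5.

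**Figure D3:**
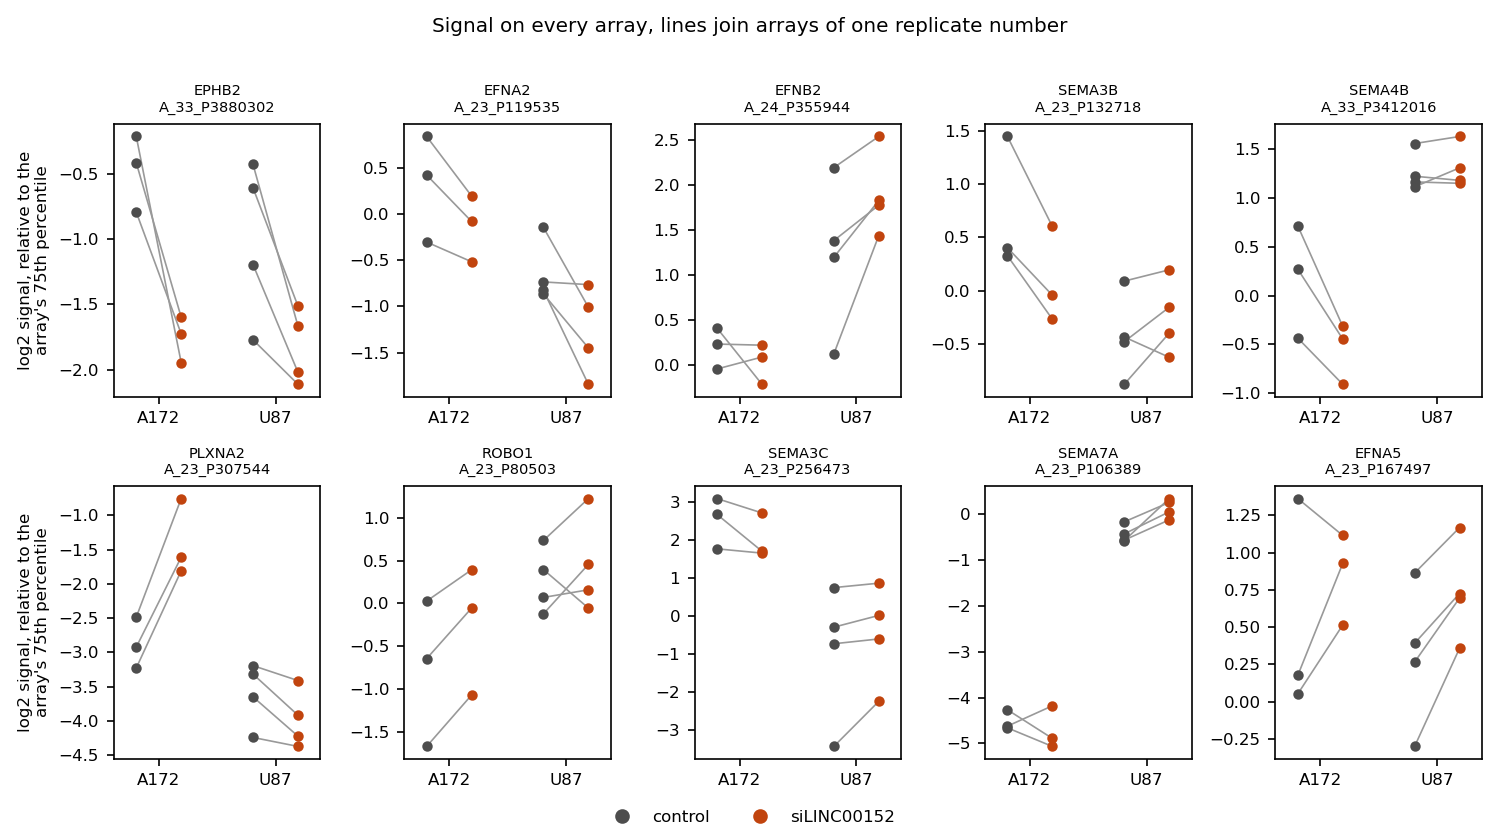
Log2 signal relative to the array's 75th percentile on every array for 10 probes of members, control in grey and siLINC00152 in red, with a line joining the arrays of 1 set and a separate vertical scale in each panel. PLXNA2 is higher on all 3 A172 knockdown arrays than on all 3 control arrays, whereas SEMA3B in A172 and EFNB2 in U87 differ within pairs while the groups overlap.

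Whether A172 and U87 responded differently was tested as an interaction in the same limma fit for the 20 members tested in both. None of the 20 was called, beside 58 of 11783 genes or 0.492% in all. Without the block 0 members and 1 gene or 0.00849% were called, and 1 member had an unadjusted p under 0.05, beside 104 genes or 0.883%. With the block, 7 members had an unadjusted p under 0.05: EPHA2, EPHA4, EFNB2, SEMA3B, SEMA3C, SEMA4B and NRP1, beside 1070 genes or 9.08% in all. All 7 had a lower fitted fold change in A172 than in U87, from -0.43 for SEMA4B to -0.92 for SEMA3C. Among all genes at that p the same sign was also the more frequent, in 649 of 1070, and among the called genes it was held by 53 of 58, so the shared sign is no result about the members. Of the 7, EPHA4 could be tested in U87 through its knockdown arrays alone, where it reads higher, so it is listed as a description. An interaction that misses the threshold does not show that the lines respond alike. These 7 were picked after their p-values were seen, and 3 alternatives changed the count: 4 members were called with the normexp background correction (EFNB2, NRP1, SEMA3B and SEMA3C), beside 316 of 11783 genes, 3 with a trended and robust variance (EPHA2, NRP1 and SEMA3B), beside 240 of 11783, and PLXNA2 without a filter on dim probes, although it is not above background in U87, beside 13 genes in all.

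Between the 3 A172 and 4 U87 control arrays, 15 of 29 members tested were called at an FDR below 0.05 and an absolute log2 difference above 1, beside 4108 of 14672 genes or 28.0%. 11 members were higher in A172 (1952 genes or 13.3% of all tested) and 4 were higher in U87 (2156 genes or 14.7%). A member could be tested by being above background in 1 line alone, so the count is a description of these members. Differences are written as A172 minus U87, and the slide cannot be told apart from the line in any of them.

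PLXND1, the receptor of SEMA3E on vessels, had the largest of these differences. Its control arrays read 4.53, 4.33 and 4.45 in A172 and -3.46, -2.71, -3.37 and -2.73 in U87. No U87 array was above background, so the fitted difference of 7.50 ± 0.31 SE (limma adjusted p = 3.8e-06) stands for a level at least 82.4-fold higher in A172, taken against the lowest signal called above background on each U87 array. EFNB3 read 1.26, 1.49 and 1.74 against -4.30, -4.50, -3.43 and -4.63, again with no U87 array above background, which gives at least 10.7-fold (adjusted p = 1.6e-05). Every such bound is for the main processing alone and need not hold under the normexp correction. There the EFNB3 difference was 2.27, under its bound of 3.42 on the log2 scale. For PLXND1 and EFNB3 every A172 value lay above every U87 value. SEMA3C read 3.09, 2.67 and 1.77 against -0.74, -0.30, -3.44 and 0.74, a difference of 3.44 ± 0.83 (adjusted p = 0.0137) with U87 array 3 far below the others. This call was lost without A172 replicate 1 (adjusted p = 0.0543) and without A172 replicate 2 (0.0514). EPHB4, at 1.01, 1.61 and 1.26 in A172 against -1.61, -2.53, -1.59 and -2.43 in U87, differed by 3.33 ± 0.35 (adjusted p = 0.000247), and its dimmer probe, not above background in U87, by at least 3.88-fold. EPHA4 read 0.80, 0.87 and 1.71 against -2.23, -1.95, -1.41 and -2.15, a difference of 3.06 ± 0.35 (adjusted p = 0.000365). Neither gene's groups overlapped, but only 1 of the 4 U87 arrays of EPHB4 and 2 of those of EPHA4 were above background, so both differences are taken largely against background signal. With the normexp correction all 5 genes stayed called, at 4.83 for PLXND1, 2.27 for EFNB3, 2.38 for SEMA3C, 1.54 for EPHB4 and 1.51 for EPHA4. The call on the dimmer EPHB4 probe was lost there, at 0.74.

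The further members higher in A172 were PLXNA1 (2.98), PLXNB1 (1.68), EFNA1 (1.66) and SEMA3B (1.15), with EPHB6 at least 1.21-fold and SEMA5A at least 1.08-fold higher, since neither was above background on any U87 array. PLXNA1 was above background on 1 of the 4 U87 arrays, PLXNB1 on 2 and EFNA1 on 3, so their fitted differences too are taken against signal that is mostly or partly background. None of these 6 calls held with the normexp correction, where the differences were 0.75 for PLXNA1, 0.40 for PLXNB1, 0.51 for EFNA1, 0.83 for SEMA3B, -0.25 for EPHB6 and -0.35 for SEMA5A. SEMA3B and SEMA5A held only without U87 replicate 3 among the 7 left out in turn. For SEMA3B the adjusted p without A172 replicate 1, 2 or 3 was 0.149, 0.0557 and 0.0876, and without U87 replicate 1, 2 or 4 it was 0.105, 0.0980 and 0.0857. For SEMA5A these values were 0.0534, 0.0788 and 0.159, then 0.0557, 0.102 and 0.0504, and a trended and robust variance gave 0.0520. EPHB6 was lost without A172 replicate 2 (0.0596) or 3 (0.0753). In all, 10 of the 15 calls held without any 1 replicate: EFNA1, EFNA3, EFNB3, EPHA4, EPHB4, NRP2, PLXNA1, PLXNB1, PLXND1 and SEMA7A. Where a gene had to be above background on every control array, EFNA3, EPHA2, NRP2, SEMA3B and EPHB2 were called. SEMA7A stood at the other end. It read -4.66, -4.27 and -4.62 on A172 control arrays, none above background, and -0.43, -0.56, -0.58 and -0.17 in U87, so that it was at least 10.6-fold higher in U87 (adjusted p = 2.4e-05). NRP2 read -2.43, -0.92 and -1.72 against 1.02, 0.81, 1.98 and 0.75 (-2.83 ± 0.44 SE, limma adjusted p = 0.00180); its probe A_33_P3297415 was also called at -2.15 and its probe A_23_P393727 just missed at -1.16 (adjusted p = 0.0520). EFNA3 read 0.27, 1.06 and 0.72 against 2.97, 2.77, 4.74 and 2.51 (-2.57 ± 0.52, adjusted p = 0.00631), and EPHA2 -0.32, -0.25 and -0.52 against 0.99, 0.57, 0.83 and 0.80 (-1.16 ± 0.27, adjusted p = 0.0124). For SEMA7A, NRP2, EFNA3 and EPHA2 every U87 value lay above every A172 value. The EPHA2 call was lost without A172 replicate 3 (adjusted p = 0.0759) or without U87 replicate 1 (0.0514), and with the normexp correction its difference of -0.73 was short of the threshold. SEMA7A (-1.65), NRP2 (-1.71) and EFNA3 (-1.71) stayed called with it. SEMA4B was called on its dimmer probe alone (-1.08, against -0.64 on the brightest), and that call was lost under normexp, on the deposited values and without any 1 of 5 replicates. Of the 14 members tested and not called, EFNA4, SLIT2, EFNA2, EFNB2, ROBO1, EPHB2 and SEMA3F lay between -1.46 and 1.00, and PLXNB2, EFNA5, EPHA8, EPHB3, NRP1, SEMA4C and SEMA4B between -0.64 and 0.36.

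**Figure D4:**
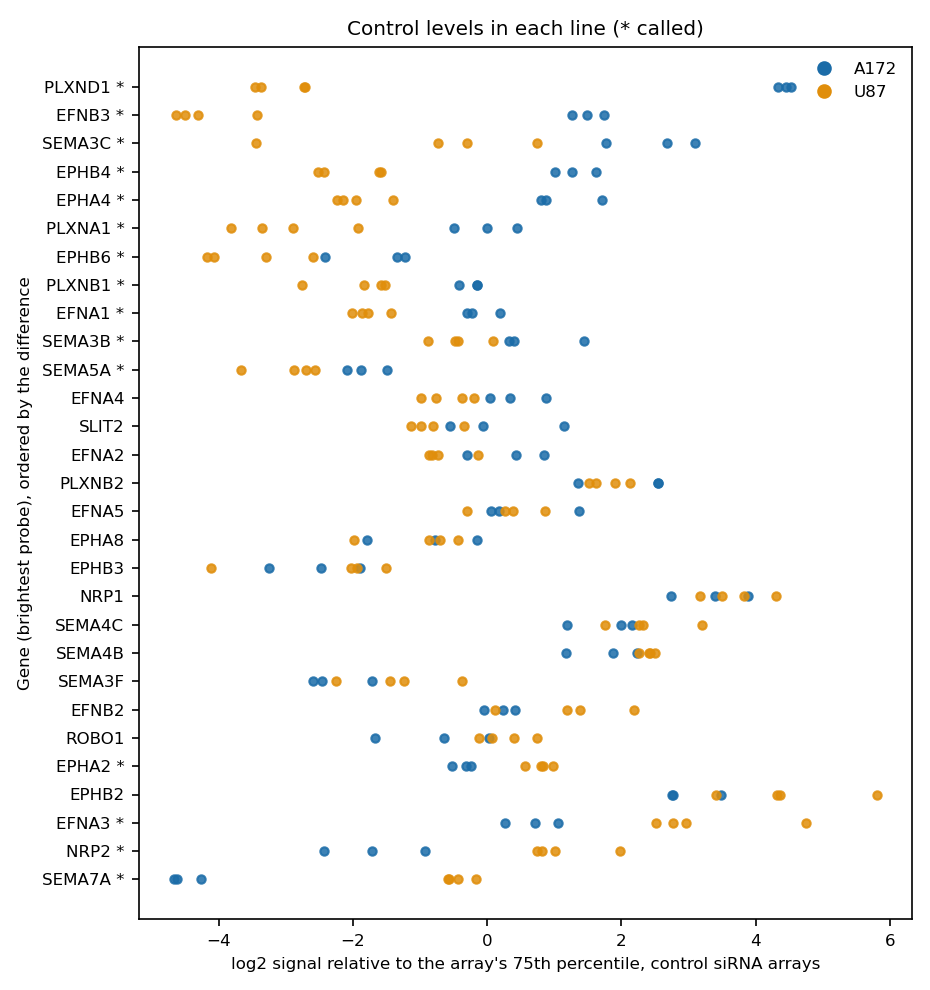
Log2 signal relative to the array's 75th percentile (horizontal axis) on the 3 A172 and 4 U87 control arrays for the brightest probe of the 29 members tested, ordered by the difference, with an asterisk on the 15 called. PLXND1 at the top reads 4.33 to 4.53 in A172 and is not above background in U87, and SEMA7A at the bottom is not above background in A172.

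Genes that work beside the members were read from 3 lists, by their brightest probes. Of 19 further Eph, semaphorin, plexin, Slit and Robo genes, limma called 0 of 14 tested in A172 and 0 of 13 in U87, with 0 and 1 at an unadjusted p under 0.05. Of 22 co-receptors and other guidance cues, 0 of 14 and 0 of 12 were called, with 4 and 2 at an unadjusted p under 0.05. A dimmer probe of the netrin receptor UNC5C (A_23_P69617) was called in U87 (adjusted p = 0.0531, lower in 4 of 4 pairs, 1.000 without the block and 0.242 under normexp). It was above background on 4 control and 0 knockdown arrays, at least 1.60-fold lower after the knockdown, while the brightest UNC5C probe read 0.13. The dimmer probe could be tested through its control arrays alone, where it reads higher, so this call is a description. Of 63 cytoplasmic effectors, limma called 3 of 55 in A172, beside 3.98% of all genes, and 0 of 53 in U87, with 13 in each line at an unadjusted p under 0.05, beside 13.2% of all genes in A172 and 18.1% in U87. These counts are no result about the effectors as a group. MICAL2, which oxidises actin, fell by 0.94 on the log2 scale on its brightest probe (adjusted p = 0.0573, 3 of 3 pairs) and read 0.18 on the other, DPYSL3, a collapsin response mediator, fell by 0.70 (adjusted p = 0.121), and DPYSL5, of the same family, rose by 0.67 (adjusted p = 0.130). Without the block none of the 3 was called, with an adjusted p of 0.546 for MICAL2 and 1.000 for the others, and 2 effectors had an unadjusted p under 0.05 in A172. MICAL2 was also lost without A172 pair 2 (0.308) or 3 (0.361), DPYSL3 without A172 pair 1 (0.486) or 2 (0.540) or U87 pair 1 (0.204), and DPYSL5 without any 1 of the A172 pairs (0.496, 0.375 and 0.488) or U87 pair 1 or 4. DPYSL5 was lost as well under normexp, at 0.44. The interaction was called for 0 of their genes, with 0 of 12, 1 of 11 and 7 of 53 at an unadjusted p under 0.05, beside 9.08% of all genes. The median log2 fold change in A172 was 0.05, 0.02 and -0.07 in the 3 lists and 0.03 over all genes, and in U87 -0.05, -0.0048 and 0.03 against 0.02.

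The same lists were read between the control arrays, with differences as A172 minus U87. The share to set beside each count is 28.0% of all genes, and the counts are no result about the lists. Of the further family members 7 of 15 were called: SEMA4A (1.38) and SEMA3G (1.32) were higher in A172, and SEMA6D (-2.21), SLIT1 (-1.92) and SEMA4F (-1.03) in U87. SEMA4D was called with a positive sign, but it was not above background on any U87 control array and its bound gives no difference. SEMA6B has 2 called probes of opposite sign, both above background on all 7 arrays: the brightest, A_23_P208900, read -1.44 (adjusted p = 0.0148) and A_33_P3263651 read 1.55 (adjusted p = 0.00706), so no direction is given for the gene. Of the co-receptors and cues 7 of 15 were called. The adhesion molecule L1CAM (4.37), a partner of NRP1, the receptors UNC5C (2.35) and NEO1 (2.03) and the proteoglycan GPC1 (2.21) were higher in A172, and VEGFA (-4.09), a growth factor that binds neuropilins, MET (-2.33), a receptor kinase that can couple to plexin-B, and RGMB (-2.27) in U87. Of the effectors 11 of 55 were called, 6 higher in A172, the first 5 by the fitted difference being DPYSL3 (3.63), DPYSL5 (at least 2.04-fold), SPSB4 (2.54), PAK2 (at least 1.05-fold) and NGEF (1.75), and 5 higher in U87, namely ABL1 (-5.02), GRIP1 (-1.85), ARHGAP35 (-1.78), FYN (-1.77) and DPYSL4 (-1.40). The bounds for DPYSL5 and PAK2 stand in for a difference because neither was above background on a U87 control array. Another probe of some of these genes was tested and not called: -0.43 for ABL1, -0.57 for ARHGAP35, 0.78 for UNC5C and -0.88 for SEMA4F, each with the sign of the brightest probe, and 1.21 for DPYSL4, with the other sign. Of the cell type markers 7 of 15 were called, with KRT18 (7.93), SOX2 (at least 2.76-fold), PECAM1 (at least 2.68-fold) and CDH5 (1.13) higher in A172 and CHI3L1 (-5.30), CD68 (-3.98) and VIM (-1.64) in U87. KRT8 was not called on its brightest probe and was called as higher in A172 on its 2 others. Some differences of these lists are fitted partly against background signal: SEMA3G and KRT18 were above background on 2 of the 4 U87 control arrays, L1CAM, NGEF, GRIP1 and MET on 3 of them, and SEMA6D, SLIT1, MET and CHI3L1 on 2 of the 3 A172 control arrays. Without any 1 replicate, 2 of the 7 calls of further family members held, 5 of the 7 of co-receptors and cues, 8 of the 11 of effectors and 6 of the 7 of markers.

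Of the cell type markers, CD44, the hyaluronan receptor of mesenchymal glioma cells, fell in A172 on its brightest probe (A_33_P3294509), from 3.00, 1.76 and 1.47 on control arrays to 1.72, 0.66 and 0.47. Each knockdown array lay below its control, and the groups overlapped. The fold change was -1.13 ± 0.12 SE in A172 (limma adjusted p = 0.00807, 1.000 without the block) and 0.12 in U87, and the difference of -1.25 ± 0.16 was called (adjusted p = 0.0861), while the dimmer CD44 probe read -0.24 in A172. In U87, SOX9 rose by 0.81 (adjusted p = 0.130) and the keratin KRT8 fell by 0.53 (adjusted p = 0.102), and neither was called without the block, where limma called 0 markers in either line, with 0 at an unadjusted p under 0.05. The CD44 call in A172 held without any 1 pair, while its difference between the lines held only without U87 pair 3. SOX9 was lost without A172 pair 3 (0.226) or any 1 U87 pair (0.289, 0.242, 0.202 and 0.222), and read 0.20 under normexp, where it was not called. KRT8 was lost without U87 pair 1 (0.280), 2 (0.246) or 3, where its fold change of -0.49 was short of the threshold. These were 1 of 15 markers tested in A172, beside 3.98% of all genes, and 2 of 11 in U87, beside 4.47%. The counts are no result about the markers as a group, and their part in the members' values was not tested.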

How the data were processed

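RNA was hybridised to 14 one-colour arrays, and the intensity of each spot, per the file headers, was background-subtracted and spatially detrended with Agilent Feature Extraction 11.5.1.1, with no normalization between arrays. The table the authors deposited holds log2 values with the same distribution in every column (array medians 4.36 to 4.45) and was used as an alternative. The members and gene lists were chosen with earlier results of these data known.

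Of 58717 non-control spots, those marked as non-uniform or population outliers were left out. Processed signal was taken as log2, the 75th percentile of each array was subtracted, and the spots of each of 50599 probes were averaged. RefSeq accessions (GRCh38.p14) named 29033 probes of 20992 genes. A probe was above background on an array when at least 0.5 of its spots were, and was tested when this held on 3 or more arrays of a group. The gene is represented by its probe with the highest mean over the 14 arrays.

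Knockdown effects came from 1 model with limma 3.58.1 (R 4.3.3, data.table version 1.17.8) over the 14 arrays, with the 7 pairs as a block and Benjamini-Hochberg adjustment over all tested probes of a line (28337 in A172, 21918 in U87). The pairs were checked by correlating, across probes, each array's deviation from the mean of its group: r was 0.675 to 0.794 for arrays of 1 set and -0.701 to -0.0436 for others in A172, and 0.373 to 0.864 against -0.772 to 0.411 in U87. In U87 set 1 the check did not single out the pair. Its control array gave 0.373 with its own knockdown array and 0.403 with that of set 2. Its knockdown array gave 0.411 with the control array of set 2. Deviations from a group mean cancel out within the group, so negative r between sets is partly built in. Probes are not independent replicates, and the pairs are read from the set numbers. The control arrays were compared with limma at an FDR under 0.05 and a log2 difference past 1. Bounds were taken against the lowest signal marked above background on each array, or the value itself where higher, and are for the main processing alone. The code was tested on simulated data.

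Every array is given for members with a called probe, for the 5 largest fold changes of 1 sign in every pair of a line, and for the 5 largest called differences between the controls in each direction; EPHA2 after the knockdown and NRP1 were added after their values were seen. Alternatives were no block, each line by itself, quantile normalization, normexp background correction (offset 50), the deposited values, no filter, a filter on every array, outlier spots kept, other thresholds, a trended and robust variance, any probe of a gene, and each pair left out. The number of arrays limits the precision.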

Additional observations from a re-analysis of the deposited data

Results flagged for a closer look

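On the EPHB4 probe A_33_P3216532, the U87 array siLINC00152 2 read -3.35, and its gap to the nearest of the other 3 arrays of the group was 0.885 of the range of the group. It was the 1 group past Dixon's limit among 34 groups of 4 arrays examined, and chance alone puts about 1 in 20 groups past it. EPHB4 was above background on 0 of these 4 arrays.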

How the results depend on the processing

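Counts are of genes called by limma. For A172 (2 members, 584 genes in all), U87 (2 and 541), their interaction (0 and 58) and the controls (15 and 4108), these alternatives moved a count past 1.5-fold. Without the replicate block, which pairs the arrays, 0 members were called in A172 and 0 in U87 (1 each at an unadjusted p under 0.05), with 28 and 6 genes in all and 1 in the interaction. With each line fitted by itself, A172 had 984 genes and U87 1 member, and the interaction could not be computed. Quantile normalization gave 38 genes in the interaction. Normexp gave 1 member in A172, 1 member and 100 genes in U87, 4 members and 316 genes in the interaction, and 8 members and 2371 genes between the controls; it moved the median control difference of all genes from -0.03 to -0.20 and the share of interaction calls with a positive sign from 8.62% to 22.5%. The deposited values gave 0 members in U87 (6 at an unadjusted p under 0.05) and 36 genes in the interaction. Without a filter there were 309 genes in A172, 0 members (8 at an unadjusted p under 0.05) and 161 genes in U87, 1 member and 13 genes in the interaction and 7789 genes between the controls, whose median difference was -0.37. A filter on every array left 1 member in A172, 1 member and 274 genes in U87, and 5 members and 2649 genes between the controls, with a median of -0.30; PLXNA2 could not be tested. An FDR under 0.05 gave 1 member and 170 genes in A172, 0 members (5 at an unadjusted p under 0.05) and 65 genes in U87 and 5 genes in the interaction, and the wider thresholds for the controls 23 members and 7434 genes. A trended and robust variance gave 3 members and 240 genes in the interaction. Counting any probe gave 4 members in A172 and 3 in U87. Leaving out a pair gave 1 to 2 members and 140 (without A172 3) to 886 (without U87 3) genes in A172, 0 to 2 members (0 without A172 2 and without U87 2, 3 or 4, with 2 to 7 at an unadjusted p under 0.05) and 157 (without U87 1) to 460 (without A172 1) genes in U87, 0 members (4 to 6 at an unadjusted p under 0.05) and 1 (without A172 2) to 68 (without U87 3) genes in the interaction, and 11 to 19 members and 2244 (without A172 3) to 4829 (without U87 3) genes between the controls. The cause was not tested except where fewer arrays, fewer probes or another threshold define the alternative. Over 22 single values there were 346 comparisons with an alternative: 290 kept their direction and side of the threshold, 50 lost the call, 6 gained one and 0 changed sign. EPHB6 and SEMA5A, called between the controls, are not among these values, and both turned sign with the normexp correction. Signal over background limits which members could be tested, 29 in A172 and 21 in U87, and the cause of that difference was not tested.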
